A study of Mus musculus with 16 samples.

Results

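The genes described here are 10 pattern recognition genes of the mouse, 9 Toll-like receptor genes (Tlr1, Tlr2, Tlr3, Tlr4, Tlr6, Tlr7, Tlr8, Tlr9 and Tlr13) and Cd14, measured in the atria after myocardial infarction. They were chosen by name. Each was taken from the row of the deposited value table whose annotation gives that symbol and no other, and each had a single such row, so they are 10 of 30141 genes with a symbol of their own. Testing was limited to genes that exceeded an array's overall median on 4 or more of the 16 arrays, and all 10 were among the 18419 genes so kept. Tlr9 passed through the infarction arrays, since 0 of 4 sham arrays met that condition, while Tlr6 met it on 2 and Tlr1 on 3 of 4 sham arrays.

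Toll-like receptors are membrane proteins that bind molecules of microbes or of damaged cells. At the cell surface TLR4, with its co-receptor CD14, senses bacterial endotoxin, and TLR2 pairs with TLR1 or TLR6 to sense lipopeptides. TLR3, TLR7, TLR8, TLR9 and TLR13 sit in endosomes and sense nucleic acids. All but TLR3 signal through the adaptor MyD88 to the transcription factor NF-kB, and TLR3 signals through TRIF. In the heart they are carried by white blood cells and also by resident cells, and are studied as sensors of injured muscle.

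All mice were wild-type C57BL/6 males, 10 weeks old at surgery. Infarction was produced by tying the left anterior descending coronary artery, and the atria were collected 1, 3 or 7 days later, with 4 arrays for each day, numbered 11 to 14, 31 to 34 and 71 to 74. Another 4 arrays, numbered 1 to 4, came from sham-operated mice. The labels do not give the time between sham surgery and collection, while the series title speaks of 0 days, and the 3 comparisons with sham share those 4 arrays. The labels give n = 4 a group and do not mention pooling. P-values measure the spread between these arrays, and their number limits the precision.

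The values are log2 signals as deposited by the authors. The labels name a 3' mouse genome array, but the rows carry names of transcript clusters, so the array design is uncertain. The sources used here do not state the normalisation behind the signals, and differences are therefore given on the log2 scale and not as folds. Of the atrial markers, Nppa, the gene of atrial natriuretic peptide, stood in sham at the highest value the table holds, and Myl7, the atrial myosin light chain gene, at 17.97 ± 0.28 (SD, n = 4). Bmp10, another atrial gene, averaged 3.47 ± 0.14 in sham, below the median negative control of the arrays. Day 3 array 31 and day 1 array 13 stood apart from the other arrays. Positive controls were set apart from negative ones less well there, with an area under the receiver operating curve of 0.743 on array 31 and 0.755 on array 13, and 0.793 to 0.825 on the others. Array 31 correlated with its group's other arrays at a median of 0.935 and array 13 at 0.983, while the remaining arrays reached 0.992 or more. Both arrays were kept. Where leaving out array 31 changed a call of a receptor gene or of another named gene against sham, the value without it is given.

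Most of the receptor genes were higher after infarction. Of the 10, 8 were called higher than sham on day 1, 9 on day 3 and 9 on day 7 by limma at a Benjamini-Hochberg adjusted p under 0.05. Of all genes tested, 24.9% were called higher on day 1, 23.5% on day 3 and 14.9% on day 7. Tlr9 entered the test through infarction arrays in which it was high, and of the other 9 genes 8 were called higher on each day. No receptor gene was called lower on any day, and 0 were lower on any day at an unadjusted p under 0.05, where 22.2%, 20.2% and 9.92% of all tested genes were called lower on days 1, 3 and 7. The median log2 difference over the 10 was 1.56 on day 1, 1.35 on day 3 and 1.04 on day 7, beside 0.06, 0.08 and -0.01 over all tested genes. The 4 infarction values lay wholly above the 4 sham values for 8 of the 10 on day 1, 8 on day 3 and 9 on day 7. The same held for 30.9%, 22.3% and 19.9% of all tested genes. Tlr3 on day 1 was the gene whose 4 values lay wholly below sham, as was so for 24.2% of all tested genes.

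**Figure D1:**
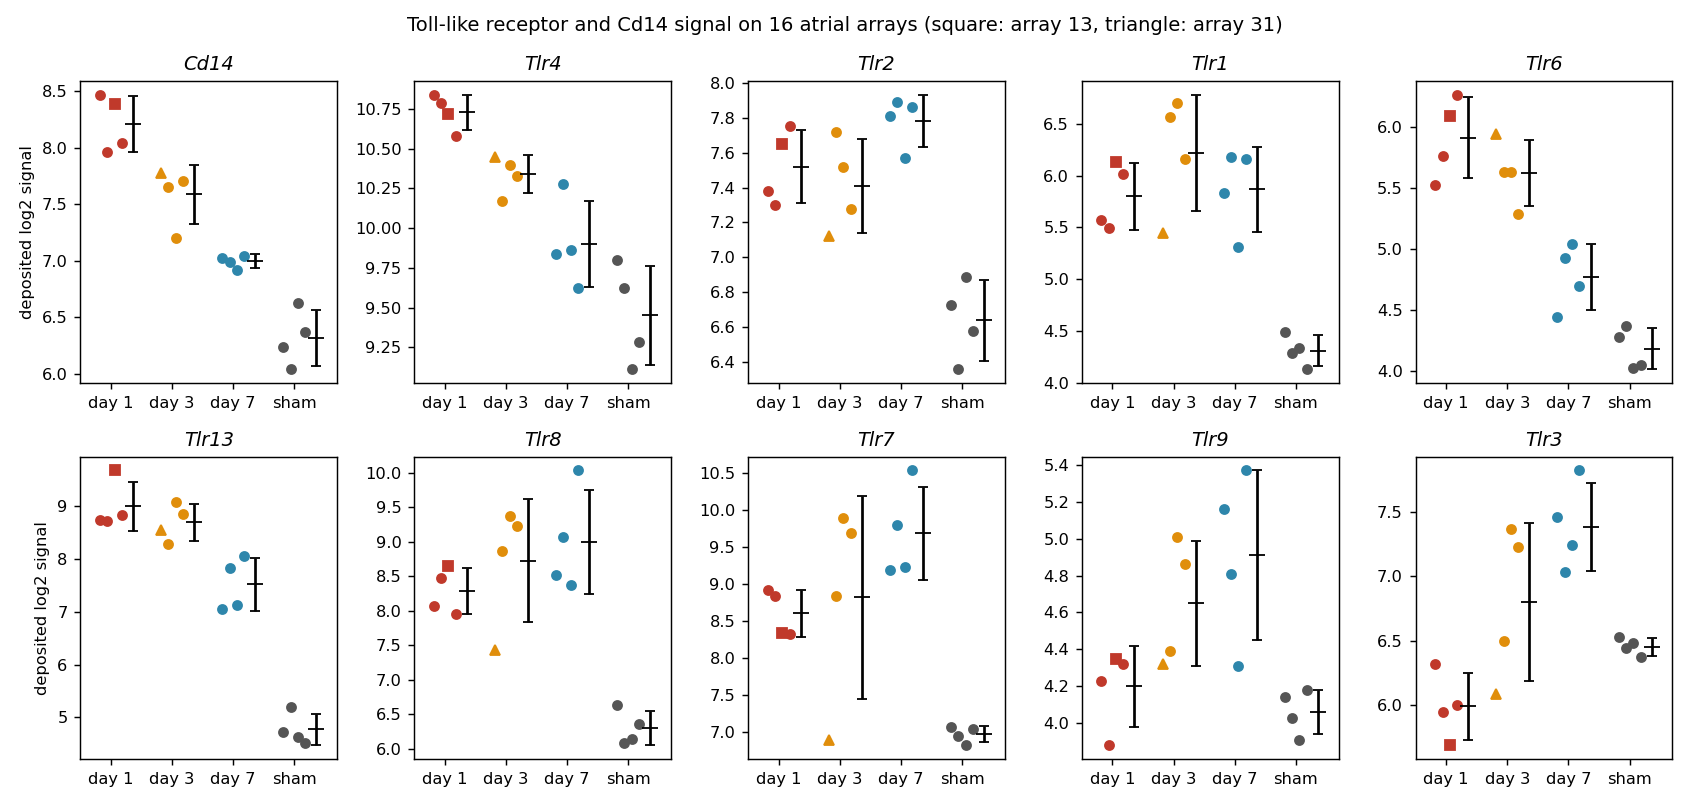
Deposited log2 signal (vertical axis, scaled separately for each gene) of Cd14 and the 9 Toll-like receptor genes on each of the 16 arrays, grouped on the horizontal axis as day 1, day 3, day 7 and sham. Points are arrays, the square is array 13 and the triangle is array 31, and the bar beside them is the mean with the SD over n = 4. The means of Cd14, Tlr4, Tlr6 and Tlr13 were highest on day 1. For Tlr13 day 3 minus day 1 was -0.3 and not called, and it was -0.02 without arrays 13 and 31. The means of Tlr2, Tlr3, Tlr7, Tlr8 and Tlr9 were highest on day 7, that of Tlr8 only with array 31 included.

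Of the endotoxin pair, Cd14 was highest on day 1 and lower on each later day, and Tlr4 was lower on day 7 than on day 1. Cd14 read 8.47, 7.96, 8.39 and 8.04 on day 1, 7.78, 7.65, 7.20 and 7.71 on day 3, and 7.03, 6.99, 6.92 and 7.04 on day 7, against 6.24, 6.04, 6.63 and 6.37 in sham. No value of any group overlapped those of another group. Its log2 difference from sham was 1.89 ± 0.15 on day 1, 1.27 ± 0.15 on day 3 and 0.67 ± 0.15 on day 7 (SE, adjusted p 9.96e-07, 1.97e-05 and 0.00516). Tlr4 read 10.84, 10.79, 10.72 and 10.58 on day 1, 10.45, 10.17, 10.40 and 10.33 on day 3, and 9.84, 10.28, 9.86 and 9.62 on day 7, against 9.80, 9.62, 9.11 and 9.28 in sham. The day 1 and day 3 values lay above all sham values, and the day 7 values overlapped them. The difference was 1.28 ± 0.16 on day 1 and 0.88 ± 0.16 on day 3 (adjusted p 4.25e-05 and 0.000626). On day 7 it was 0.45 ± 0.16, which did not pass the test (adjusted p 0.061, 95% interval 0.10 to 0.80). It passed at the same 0.45 without array 31 (adjusted p 0.0425), at 0.56 without sham array 1 (adjusted p 0.0265) and at 0.54 without day 7 array 74 (adjusted p 0.0447).

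The lipopeptide receptors did not share one course. Tlr2, the common partner, averaged 7.52 ± 0.21 on day 1, 7.41 ± 0.27 on day 3 and 7.78 ± 0.15 on day 7, against 6.64 ± 0.23 in sham (SD, n = 4 each). It was higher than sham by 0.87 ± 0.15, 0.77 ± 0.15 and 1.14 ± 0.15 on the 3 days (adjusted p 0.000451, 0.000971 and 0.000116), and its lowest infarction value of 7.12 was above the highest sham value of 6.89. Tlr1, the partner for triacylated lipopeptides, ranged from 5.49 to 6.13 on day 1, 5.45 to 6.70 on day 3 and 5.31 to 6.18 on day 7, against 4.13 to 4.49 in sham. Its differences of 1.49, 1.91 and 1.56 (SE 0.26 each, adjusted p 0.000432, 4.68e-05 and 0.00058) came with only 1 of 4 sham values above the median negative control of its array. Tlr6, the partner for diacylated lipopeptides and the neighbour of Tlr1 on the same chromosome, read 5.52, 5.76, 6.09 and 6.26 on day 1, 5.94, 5.63, 5.63 and 5.28 on day 3, and 4.44, 4.92, 5.04 and 4.69 on day 7, against 4.28, 4.37, 4.02 and 4.05 in sham. No sham value of Tlr6 exceeded the median negative control of its array, so the differences are bounds. Tlr6 was higher by at least 1.42 on day 1, at least 1.13 on day 3 and at least 0.28 on day 7 (adjusted p 6.85e-06, 2.2e-05 and 0.0243). The day 7 call was lost when sham array 3, sham array 4, day 7 array 72 or day 7 array 73 was left out, with adjusted p from 0.0667 to 0.0715.

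**Figure D2:**
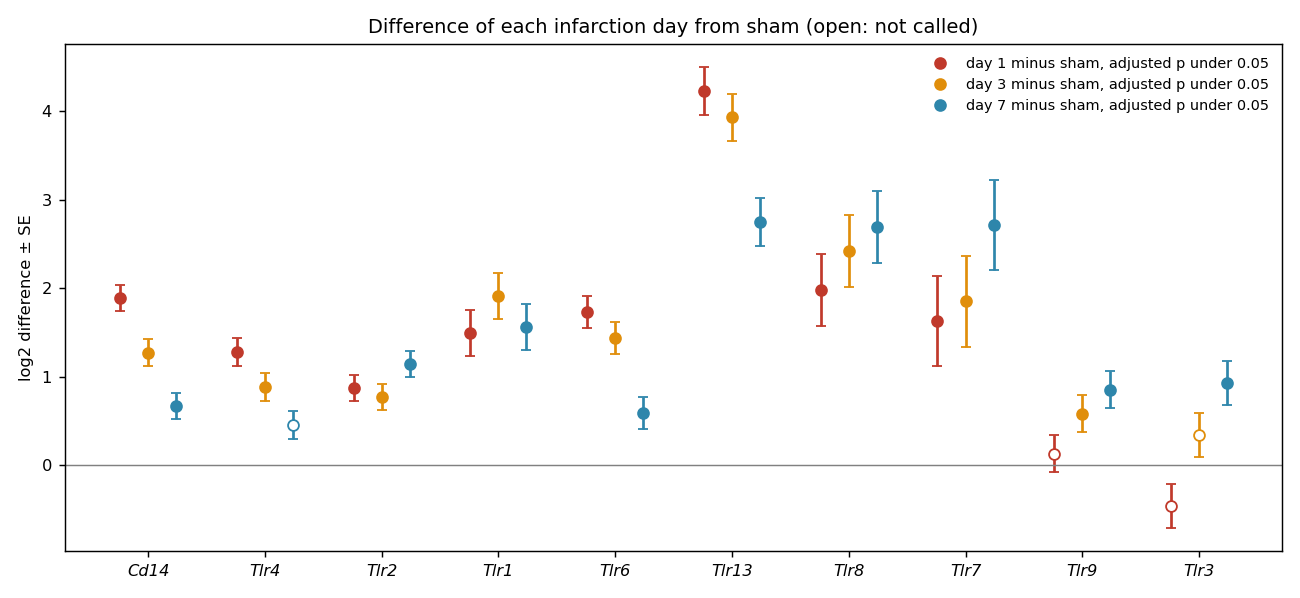
Log2 difference from sham (vertical axis) of each gene on day 1, day 3 and day 7, from left to right within a gene, with the SE of the limma fit over n = 4 arrays a group. Filled points passed an adjusted p under 0.05 and open points did not, which were Tlr9 and Tlr3 on day 1, Tlr3 on day 3 and Tlr4 on day 7.

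Among the nucleic acid receptors, Tlr13 had the largest difference of the 10 genes on days 1 and 3, while on day 7 it was within the SE of those of Tlr7 and Tlr8. The product of Tlr13 recognises bacterial ribosomal RNA in mouse cells. Tlr13 read 8.75, 8.73, 9.68 and 8.84 on day 1, 8.56, 8.29, 9.09 and 8.86 on day 3, and 7.06, 7.83, 7.13 and 8.06 on day 7, against 4.72, 5.20, 4.63 and 4.52 in sham. Every infarction value exceeded every sham value, and the day 7 values lay below all values of days 1 and 3. The difference from sham was 4.23 ± 0.27 on day 1, 3.93 ± 0.27 on day 3 and 2.75 ± 0.27 on day 7 (adjusted p 2.04e-07, 4.02e-07 and 1.26e-05). In sham, 3 of 4 values were above the median negative control.

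Tlr7 and Tlr8, which lie side by side on the X chromosome and whose products sense single-stranded RNA, kept to their higher levels through day 7. Tlr7 read 8.92, 8.83, 8.34 and 8.32 on day 1, 6.89, 8.84, 9.89 and 9.68 on day 3, and 9.18, 9.79, 9.23 and 10.53 on day 7, against 7.07, 6.95, 6.82 and 7.04 in sham. The lowest day 3 value is that of array 31, which lay inside the sham range, and the other 11 infarction values lay above it. The differences of Tlr7 were 1.63, 1.85 and 2.71 on days 1, 3 and 7 (SE 0.51 each, adjusted p 0.0183, 0.00871 and 0.00147), and without array 31 the day 3 difference was 2.50 ± 0.31 (adjusted p 1.95e-05). Tlr8 read 8.07, 8.47, 8.64 and 7.95 on day 1, 7.43, 8.86, 9.37 and 9.23 on day 3, and 8.51, 9.06, 8.37 and 10.03 on day 7, against 6.63, 6.08, 6.14 and 6.35 in sham. All 12 infarction values of Tlr8 lay above sham, with array 31 the lowest of them. Its differences were 1.98, 2.42 and 2.69 (SE 0.41 each, adjusted p 0.00156, 0.00029 and 0.000307), and 2.85 ± 0.32 on day 3 without array 31. Its day 3 mean was then 9.15 ± 0.26 (SD, n = 3), above the day 7 mean of 8.99 ± 0.75, and the difference between these days was not called (adjusted p 0.839).

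Tlr9 and Tlr3 were the genes not called on day 1. Tlr9, whose product senses unmethylated CpG DNA, was close to background, above the median negative control on 0 of 4 arrays on day 1, 2 on day 3, 3 on day 7 and 0 in sham. It ranged from 3.88 to 4.35 on day 1, 4.32 to 5.01 on day 3 and 4.31 to 5.37 on day 7, against 3.91 to 4.18 in sham. It was higher than sham by at least 0.42 on day 7 (adjusted p 0.00816). On day 3 it was called (adjusted p 0.0348), but its mean of 4.65 did not exceed 4.66, the mean of the day 3 negative control medians. No size can thus be read on day 3, nor on day 1, where both groups were at background. The day 3 call of Tlr9 was lost when sham array 1, 2 or 3 or day 3 array 33 or 34 was left out, with adjusted p from 0.0531 to 0.0984, and without the filter on low values (adjusted p 0.0512). Tlr3, whose product senses double-stranded RNA, read 6.32, 5.95, 5.69 and 6.00 on day 1, 6.09, 6.50, 7.37 and 7.23 on day 3, and 7.46, 7.03, 7.24 and 7.82 on day 7, against 6.53, 6.44, 6.48 and 6.37 in sham. All day 7 values were above sham, and the day 3 values spread from below sham, on array 31, to above it. The day 7 difference of Tlr3 was 0.93 ± 0.25 (adjusted p 0.0128), and that of day 1 was -0.46 ± 0.25, which did not pass (adjusted p 0.13, 95% interval -0.99 to 0.06). On day 3 it was 0.34 ± 0.25 (adjusted p 0.273), and 0.58 ± 0.21 without array 31 (adjusted p 0.0369).

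The 250 bases before the transcription start are shown for Tlr13, Tlr8 and Tlr9, 5′ to 3′ on the gene's strand, from RefSeq on GRCm38.p6. Tlr13 differed most from sham on days 1 and 3. Means over all arrays were highest on day 7 for Tlr8 and Tlr9, and also for Tlr2, Tlr3 and Tlr7. The windows shown are those that end at the outermost annotated start of the gene. They lie at chrX:106143025-106143274 (plus strand), chrX:167264330-167264579 (minus strand) and chr9:106222348-106222597 (plus strand). Capitals mark matches, on either strand, to 5 short motifs searched, which are GGGNNNTTC for NF-kB, GAAANNGAA for interferon regulatory factors (IRF), GAGGAAG for PU.1, TGANTCA for AP-1 and TTGCNNAA for C/EBP.
Tlr13: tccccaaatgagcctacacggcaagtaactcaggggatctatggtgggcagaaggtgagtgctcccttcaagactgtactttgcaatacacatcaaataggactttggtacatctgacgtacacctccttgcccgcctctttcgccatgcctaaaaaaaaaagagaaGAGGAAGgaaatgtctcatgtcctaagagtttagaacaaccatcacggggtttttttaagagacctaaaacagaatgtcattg
Tlr8: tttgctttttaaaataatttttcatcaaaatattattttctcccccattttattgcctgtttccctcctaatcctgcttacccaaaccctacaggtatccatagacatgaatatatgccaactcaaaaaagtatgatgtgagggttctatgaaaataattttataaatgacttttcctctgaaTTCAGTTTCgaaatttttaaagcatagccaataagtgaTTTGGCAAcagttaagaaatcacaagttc
Tlr9: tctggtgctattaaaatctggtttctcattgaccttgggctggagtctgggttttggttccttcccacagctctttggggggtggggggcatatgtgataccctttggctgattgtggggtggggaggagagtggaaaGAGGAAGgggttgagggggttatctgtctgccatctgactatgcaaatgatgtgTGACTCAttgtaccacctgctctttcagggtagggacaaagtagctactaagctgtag
The Tlr13 window holds the PU.1 letters, 83 to 77 bases before the start. The Tlr8 window holds IRF letters at 67 to 59 bases and C/EBP letters at 29 to 22 bases before the start. The Tlr9 window holds PU.1 letters at 112 to 106 bases and AP-1 letters at 58 to 52 bases. Windows of 7 of the 10 genes matched the promoter table. These 7 genes have 9 windows, as Tlr1 and Tlr6 have a pair each. NF-kB letters occurred in 3 of the 9 windows, IRF letters in 2, PU.1 letters in 3, AP-1 letters in 1 and C/EBP letters in 3. The same letters occur in 11.8%, 7.13%, 10.6%, 6.75% and 9.56% of all 32851 such windows. The windows with NF-kB letters, those of Tlr2, Tlr3 and Tlr6, are not among the 3 shown. No match to one motif overlapped a match to another motif in the 3 windows shown, and a match describes letters and not binding.

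Direct comparison of the days separated genes that were lower on day 7 from genes that were higher. Between day 7 and day 1, Cd14 fell by 1.22 ± 0.15, Tlr4 fell by 0.83 ± 0.16, Tlr6 fell by 1.13 ± 0.18 and Tlr13 fell by 1.48 ± 0.27 (adjusted p 6.98e-05, 0.00216, 0.000386 and 0.00134). For each of these 4 the values of the 2 days did not overlap, a share not given here for all tested genes. Tlr3 was higher on day 7 than on day 1 by 1.40 ± 0.25 (adjusted p 0.000983), again without overlap, and Tlr9 by at least 0.17 (adjusted p 0.022). Thus 2 of the 10 were called higher and 4 lower, where 13.7% and 12.7% of all tested genes were called higher and lower. The Tlr9 call was lost without day 1 array 12, day 7 array 71 or day 7 array 74, which leaves 1 gene called higher. Tlr7 was higher on day 7 than on day 1 by 1.08 (95% interval -0.01 to 2.17, adjusted p 0.116) with no overlap of values, and the same difference passed without array 31 (adjusted p 0.00715). Tlr1, Tlr2 and Tlr8 were not called between these days, with 95% intervals of -0.48 to 0.62, -0.06 to 0.59 and -0.16 to 1.58.

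Between day 7 and day 3 the genes called were Tlr6, which fell by 0.85 ± 0.18, Tlr13, which fell by 1.18 ± 0.27, and Cd14, which fell by 0.59 ± 0.15 (adjusted p 0.00685, 0.0119 and 0.0215). The Cd14 call was lost without day 3 array 34, day 7 array 72 or day 7 array 73, with adjusted p from 0.0501 to 0.0572. Of the 10 genes 0 were called higher and 2 were higher at an unadjusted p under 0.05, Tlr2 and Tlr3. Of all tested genes 4.06% were called higher and 8.57% lower. Between day 3 and day 1 only Cd14 was called, lower on day 3 by a log2 difference of -0.63 ± 0.15 (adjusted p 0.0216), and 0 genes were called higher, with 2 at an unadjusted p under 0.05, Tlr3 and Tlr9. Of all tested genes 5.95% were called higher and 2.16% lower on day 3 than on day 1. The Cd14 call was lost without day 1 array 11, day 1 array 13 or day 3 array 33, with adjusted p from 0.0609 to 0.0781. Without array 31, 4 genes were called higher on day 3 than on day 1, Tlr1 by 0.67, Tlr3 by 1.04, Tlr7 by 0.87 and Tlr8 by 0.87 (adjusted p 0.0255, 0.00217, 0.043 and 0.0488), where 18.8% of all tested genes were then called higher and 16.8% lower. Cd14 was still called lower in that fit.

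**Figure D3:**
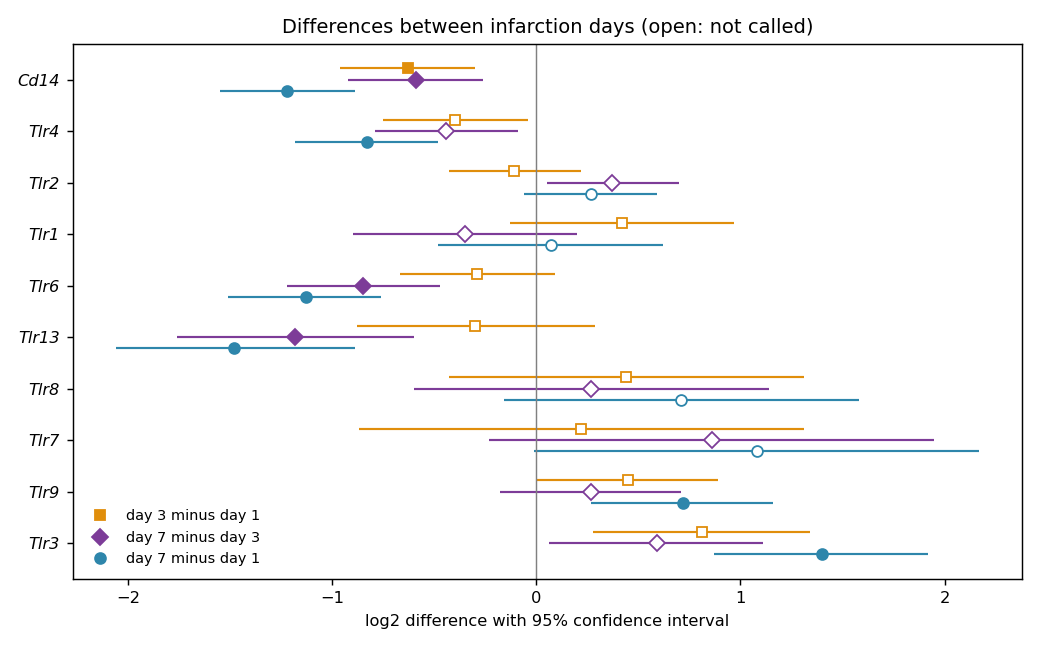
Log2 differences between infarction days (horizontal axis) with the 95% interval of the limma fit, for day 3 minus day 1 (squares), day 7 minus day 3 (diamonds) and day 7 minus day 1 (circles). Filled symbols passed an adjusted p under 0.05. Cd14 lies left of 0 in all 3 comparisons, and Tlr3 lies right of 0 in all 3, passing in the comparison of day 7 with day 1.

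Markers of white cells and of resident cells also differed from sham, but not all in the same direction or on the same days as the receptor genes. In bulk tissue, fewer cells of a type and less RNA per cell cannot be told apart. The counts in this and later lists stand beside 24.9%, 23.5% and 14.9% of all tested genes called higher on days 1, 3 and 7. The shares called lower were 22.2%, 20.2% and 9.92%. All 6 pan-leukocyte markers were called higher on each day, and their mean level over sham was 2.98 to 3.79 on day 1, 3.29 to 3.61 on day 3 and 2.07 to 3.26 on day 7, against -0.17 to 0.18 on the sham arrays. Cd53, a pan-leukocyte membrane protein gene, averaged 13.66 ± 0.62 on day 1, 13.16 ± 0.20 on day 3 and 11.95 ± 0.52 on day 7, against 8.41 ± 0.23 in sham (SD, n = 4 each). Fcer1g, the Fc receptor gamma chain gene, averaged 9.74, 10.20 and 9.75 on the 3 days, against 6.71 in sham. Of 6 neutrophil markers 5 were called higher on day 1, 5 on day 3 and 0 on day 7, including Mmp8 and Mmp9, which entered the test only through infarction arrays. Of the other 4 markers 3, 3 and 0 were called higher. The mean level of all 6, Mmp8 and Mmp9 included, was 3.69 to 5.01 on day 1 and 0.11 to 0.32 on day 7. Sham arrays had -0.08 to 0.09, and on day 3 the level was 4.30 on array 31 and 1.01 to 1.22 on the other 3 arrays. Retnlg, a neutrophil gene, was higher by at least 8.37 on day 1 and at least 2.25 on day 3 (adjusted p 1.13e-05 and 0.0389), and Csf3r, the granulocyte growth factor receptor gene, by 4.49 and 3.05 (adjusted p 0.00101 and 0.0106). Without array 31 the fitted day 3 difference of Retnlg was 1.39 and did not pass (adjusted p 0.0713), and that of Csf3r was 1.76 (adjusted p 9.21e-06). Csf3r on day 7, at 0.75, then passed (adjusted p 0.00594, and 0.617 with array 31). Of 8 macrophage markers 2 were called higher on day 1, near the share over all tested genes, 8 on day 3 and 8 on day 7. Their mean level was 0.66 to 0.83 on day 1 and 1.64 to 2.81 on day 7, against -0.05 to 0.08 on sham arrays, and on day 3 it was 0.50 on array 31 and 2.10 to 2.52 on the others. Adgre1, which encodes the macrophage protein F4/80, was higher by 1.37, 2.88 and 3.49 on days 1, 3 and 7 (adjusted p 0.017, 8.99e-05 and 5.51e-05). C1qb, a complement gene of macrophages, was higher by 2.03 on day 3 and 3.38 on day 7 (adjusted p 0.0165 and 0.00132), and by 2.88 on day 3 without array 31. Without that array 4 of the 8 macrophage markers were called higher on day 1, where 35.6% of all tested genes then were. Of 4 fibroblast markers 3 were called lower on day 1, 1 higher on day 3 and 3 higher on day 7. Their mean level was -1.53 to -0.31 on day 1, -0.50 on array 31 and 1.10 to 1.40 on the other day 3 arrays, and 2.20 to 2.83 on day 7, against -0.10 to 0.11 on sham arrays. Of 4 endothelial markers 2 were called lower on day 1 and 1 higher on days 3 and 7, with mean levels of -0.70 to -0.10 on day 1, -0.41 to 0.30 on day 3 and 0.13 to 1.04 on day 7, against -0.19 to 0.12 on sham arrays. The part of these cells in the receptor differences was not tested.

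Array 31 carried neutrophil and macrophage marker levels near those of day 1. Its Tlr1, Tlr2, Tlr3, Tlr7, Tlr8 and Tlr9 values were the lowest of the day 3 arrays. Its Cd14 value of 7.78, Tlr4 value of 10.45 and Tlr6 value of 5.94 were the highest of day 3. Of 4 monocyte markers 2, 3 and 1 were called higher on days 1, 3 and 7. Among them Plac8 entered the test only through infarction arrays, and of the other 3 markers 2, 2 and 1 were called higher. Of 5 resident macrophage markers 1 was called higher on days 1 and 3 and 0 on day 7, with 1, 2 and 2 called lower. Dendritic cell markers had 3 of 6 tested, with 1 called higher on day 3 only, and T and natural killer cell markers had 1 of 5 tested, with 0 called. None of the 3 B cell markers on the array was tested, being low throughout. Atrial muscle markers were called lower for 2 of 4 genes on day 1 and on day 3, and for 0 on day 3 without array 31, which had the lowest mean level of that list, -3.46 relative to sham.

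**Figure D4:**
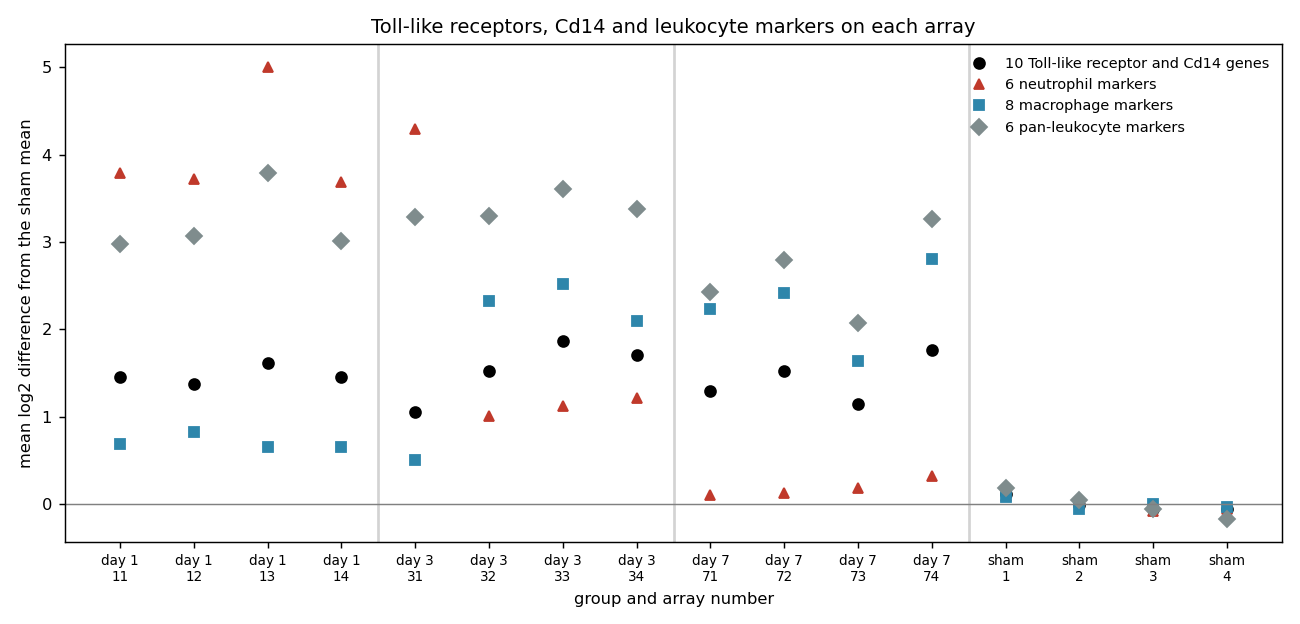
Mean log2 difference from the sham mean (vertical axis) of the 10 receptor genes, 6 neutrophil markers, 8 macrophage markers and 6 pan-leukocyte markers on each of the 16 arrays (horizontal axis). The receptor genes averaged 1.37 to 1.62 on day 1, 1.06 on array 31 and 1.52 to 1.87 on the other day 3 arrays, and 1.15 to 1.77 on day 7, against -0.06 to 0.12 on the sham arrays.

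The genes whose course over the 16 arrays was most like that of a receptor gene were found by the root mean square difference of mean-centred log2 values. Plek, which encodes the platelet and leukocyte protein pleckstrin, lay at 0.13 from Tlr13, with differences from sham of 4.24, 4.01 and 2.81 on days 1, 3 and 7, and Alox5ap, needed for leukotriene synthesis, lay at 0.32. The nearest genes to Tlr7 were Tlr8 at 0.40 and Ms4a6b at 0.45, and those nearest to Tlr8 were Ctsz, a lysosomal protease gene, at 0.31 and Tnfaip8l2 at 0.33. Tlr4 lay nearest to Tmbim1 at 0.16 and Npm3-ps1 at 0.17, and Cd14 to Diaph1 at 0.24 and Cytip at 0.25. Tlr3 lay nearest to Tapbp, which encodes a chaperone of antigen presentation, at 0.19 and to Axl, a receptor tyrosine kinase gene, at 0.22. The genes nearest to Tlr1 were Tnfrsf1b and Mob1a, both at 0.21, and those nearest to Tlr2 were Plat at 0.19 and Shc1 at 0.20. Tlr6 lay nearest to Hnrnpa3 at 0.20 and Cyrib at 0.24, and Tlr9 to Pml at 0.18 and Sdc3 at 0.20. These distances describe 16 arrays that share the same groups, and genes of small change have small distances.

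Of the 3 other mouse Toll-like receptor genes, Tlr5, Tlr11 and Tlr12, only Tlr5, the flagellin receptor gene, was called against sham on any day, higher on day 1 by 0.28 ± 0.09 (adjusted p 0.0164). Among 8 co-receptors and chaperones 4 were called higher on day 1, 5 on day 3 and 3 on day 7, and 1 lower on day 3. The lower one was the scavenger receptor gene Cd36, which is named after its values were seen (-0.73, adjusted p 0.0297). Cd36 on day 3 read 17.47 on array 31 and 18.79 to 19.00 on the other arrays, against 19.22 to 19.33 in sham. After quantile normalisation 1, 3 and 3 of the 8 were called higher, and 1 lower on day 1. Over all tested genes the shares were then 14.3%, 14.1% and 9.87% higher and 32.4%, 25.2% and 6.82% lower on days 1, 3 and 7. Cd180, a relative of the receptors, and Ly86, which encodes its partner MD-1, led the co-receptor list. Ly96, a gene of the same list named after its values were seen, averaged 9.03, 8.93 and 9.64 on days 1, 3 and 7, against 9.59 in sham. Ly86 averaged 9.46 on day 1, 12.01 on day 3 and 12.69 on day 7, against 7.78 in sham, with differences of 1.68, 4.23 and 4.92 (adjusted p 0.0215, 3.04e-05 and 2.89e-05). Cd180 differed by 1.59, 3.15 and 3.16 (adjusted p 0.0126, 9.08e-05 and 0.000238). Unc93b1, which carries the nucleic acid receptors to endosomes, differed by 0.55 on day 1, which did not pass (adjusted p 0.142, and 0.0359 without array 31), and was higher by 1.70 on day 3 and 1.99 on day 7 (adjusted p 0.000462 and 0.000336). Hsp90b1, the chaperone that folds most of the receptors, was higher by 0.46 on day 1 and 0.77 on day 3 (adjusted p 0.0379 and 0.00199).

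The adaptors and kinases were called in both directions. Of 14 tested, 8 were called higher and 3 lower on day 1, 6 and 4 on day 3, and 2 and 3 on day 7, with median differences of 0.20, 0.09 and 0.07. After quantile normalisation the calls were 2 higher and 4 lower on day 1, 2 and 4 on day 3, and 0 and 2 on day 7. The balance on days 1 and 3 thus turned to lower, as it did over all tested genes. Their shares were then 14.3% higher and 32.4% lower on day 1, 14.1% and 25.2% on day 3, and 9.87% and 6.82% on day 7. Myd88, the common adaptor, was higher by 1.04 ± 0.18 on day 1 and 0.77 ± 0.18 on day 3 (adjusted p 0.000404 and 0.0029), and by 0.43 ± 0.18 on day 7, which did not pass (adjusted p 0.0962). Ticam2, which encodes the adaptor TRAM that TLR4 uses, was higher by 0.35, 0.34 and 0.36 on the 3 days (adjusted p 0.0276, 0.0303 and 0.0377). Ikbke, a kinase gene of the interferon branch, was higher by 0.52 and 0.57 on days 1 and 3 (adjusted p 0.00238 and 0.00113), and on day 7 its difference of 0.20 passed only without array 31 (adjusted p 0.235 with it and 0.0347 without). Tab1, which activates the kinase TAK1, fell by 0.54, 0.45 and 0.38 on the 3 days, and Ikbkg, the regulatory subunit of the NF-kB kinase, fell by 0.42, 0.43 and 0.29 (adjusted p from 0.00039 to 0.0116). Of 11 transcription factors 5, 5 and 4 were called higher on days 1, 3 and 7 and 0 lower (0 at an unadjusted p under 0.05), while after quantile normalisation 1, 3 and 2 were called higher. Irf7, which drives type I interferon genes downstream of TLR7 and TLR9, was higher by 1.73 ± 0.56 on day 3 and 2.81 ± 0.56 on day 7 (adjusted p 0.0205 and 0.00214). Its day 3 values were uneven, at 5.96, 5.65, 8.64 and 7.78 on arrays 31 to 34, against 5.18 to 5.36 in sham. Irf8, a transcription factor gene of myeloid cells, was higher by 0.32, 0.57 and 0.49 on the 3 days (adjusted p 0.0248, 0.000593 and 0.00349). Rela, an NF-kB subunit gene, was higher by 0.50 on day 1 and 0.45 on day 7 (adjusted p 0.0104 and 0.0306), and Fos, an AP-1 subunit gene, by 0.63 on day 3 (adjusted p 0.0255). Irf5 was also called on the 3 days (adjusted p 9.11e-05, 5.1e-05 and 0.0112), but was at background in sham and on days 1 and 7. Its day 3 mean of 4.62 did not exceed 4.66, the mean of the day 3 negative control medians, so no size can be read.

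Inhibitors and targets of the pathway were called most often on day 1. Of 9 inhibitors tested 6, 4 and 1 were called higher on days 1, 3 and 7, and 0, 1 and 1 lower. After quantile normalisation 5, 2 and 1 were called higher and 1 lower on each day. The shares of all tested genes were then 14.3%, 14.1% and 9.87% higher and 32.4%, 25.2% and 6.82% lower. Nfkbia, which encodes the NF-kB inhibitor, was higher by 1.22 on day 1 and 0.62 on day 3 (adjusted p 0.00106 and 0.0472), and the day 3 call was lost without array 31 (0.56, adjusted p 0.0905). Tnfaip3, which encodes the ubiquitin-editing protein A20, was higher by 1.10, 0.70 and 0.54 on the 3 days (adjusted p 1.84e-05, 0.000538 and 0.00616). Otulin, a deubiquitinase gene, was higher by 0.86 on day 1 and 0.48 on day 3 (adjusted p 0.000288 and 0.0122). Tollip, an inhibitory adaptor gene, fell by 0.30 on day 3 and by 0.28 on day 7 (adjusted p 0.00579 and 0.0149). Of 11 target genes tested 11 were called higher on day 1, 9 on day 3 and 2 on day 7. Acod1 and Nos2 entered the test only through infarction arrays, and of the other 9 target genes 9, 9 and 2 were called. Il1b, the interleukin 1 beta gene, averaged 10.69 on day 1, 8.62 on day 3 and 6.19 on day 7, against 4.79 in sham, and was higher by 5.90 on day 1 and 3.83 on day 3 (adjusted p 2.01e-05 and 0.000479). The chemokine genes Cxcl2 and Ccl2 were higher on day 1 by at least 5.43 and by 4.49, and on day 3 by at least 2.67 and by 3.59 (adjusted p from 3.06e-06 to 0.00346). Without array 31 the fitted day 3 difference of Cxcl2 was 1.98 as against 2.91 with it, and Il1b had 3.14. On day 7 Il6 was higher by at least 0.51 and Nfkbiz by 0.83 (adjusted p 0.0281 and 0.000581).

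Genes of proteins reported to act as tissue ligands of TLR4 or TLR2 were also higher. Of 7 tested, 5, 6 and 4 were called higher and 1 lower on days 1, 3 and 7. S100a8, a neutrophil protein gene, averaged 12.45 on day 1, 9.28 on day 3 and 4.90 on day 7, against 4.24 in sham. On day 3 its values were 13.64 on array 31 and 7.67 to 7.96 on the other 3 arrays, and the difference of 5.04 ± 1.00 was 3.59 ± 0.33 without that array (adjusted p 0.000972 and 1.39e-06). S100a9, its partner, was higher by 7.74 on day 1 and 3.93 on day 3 (adjusted p 2.9e-05 and 0.00383), and by 2.55 on day 3 without array 31. Fn1, the fibronectin gene, was higher by 4.91, 6.09 and 7.18 on days 1, 3 and 7, and Tnc, the tenascin C gene, by 4.18, 6.58 and 5.34 (adjusted p from 4.89e-07 to 1.56e-05). Bgn, the biglycan gene, was higher by 1.72 on day 3 and 2.80 on day 7 (adjusted p 9.5e-05 and 6.16e-06). The gene that was lower on all 3 days was Hspd1, a mitochondrial chaperone gene outside the naming rule that was picked after its values were seen, at -0.71, -0.89 and -1.16 (adjusted p 0.00514, 0.000983 and 0.000308).

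**Figure D5:**
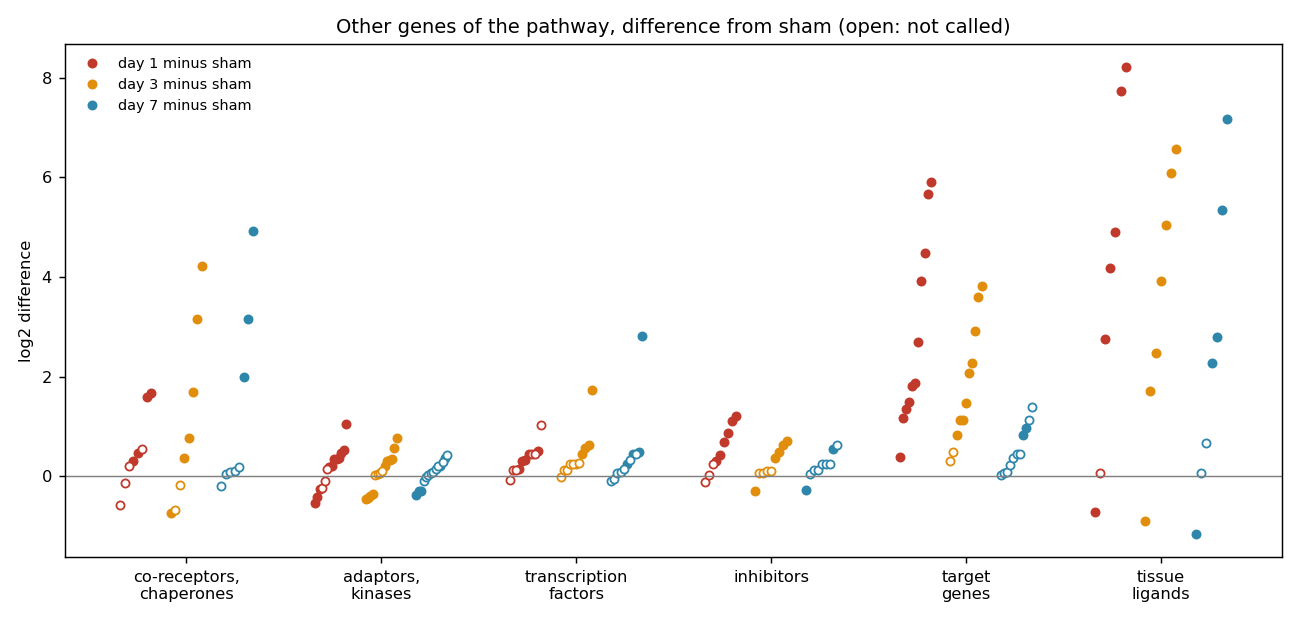
Log2 difference from sham (vertical axis) of the tested genes in 6 lists of the pathway (horizontal axis), with day 1, day 3 and day 7 from left to right within a list. Each point is a gene, filled where the adjusted p was under 0.05. All 11 target genes are filled on day 1 and 2 of them on day 7, while Ly86, Cd180 and Unc93b1 among the co-receptors lie between 1.99 and 4.92 on day 7.

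The size and direction of calls over all genes depended on how arrays were scaled. Of the genes called on days 1, 3 and 7, 52.9%, 53.8% and 60.0% were higher as deposited. The share was 30.7%, 35.8% and 59.1% after quantile normalisation and 38.5%, 36.9% and 37.9% after each array was centred on its median over tested genes. Quantile normalisation moved the median difference of all genes on day 1 to -0.15, and between day 7 and day 1 to 0.16, where the deposited values gave 0.06 and -0.03. Under both scalings the directions of the called receptor differences were unchanged. Tlr9 on day 3 and Tlr6 on day 7 lost their calls after centring, with adjusted p 0.0855 and 0.0519. Tlr4 between day 7 and day 1 lost its call after quantile normalisation, at -0.41 (adjusted p 0.159), as did Tlr9 on day 3 (adjusted p 0.0931), Cd14 between day 3 and day 1, at -0.57 (adjusted p 0.0527), and Cd14 between day 7 and day 3, at -0.50 (adjusted p 0.0757).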

How the data were processed

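Total RNA of atrial tissue from 16 mice was measured on 16 single-colour arrays. The deposited values are log2 signals in 1 table of 72688 rows, made with Affymetrix Expression Console per the submitters' processing notes. The sources used here do not state its background correction, summarisation or scaling. Column medians ran from 4.17 to 4.61. Depth does not apply to arrays, whose number limits the precision.

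Rows with 1 gene symbol (30604) were kept, with 813 symbols updated through the gene names of GRCm38.p6, and the row with the highest mean stood for each of 356 genes with several rows. The 16 columns were fitted together with limma 3.58.1 in R 4.3.3 (1 mean per group, lmFit, eBayes with a variance trend), the 6 pairwise comparisons were adjusted by Benjamini-Hochberg over 18419 genes, with an adjusted p under 0.05 as the threshold for a call. The fit was tested on simulated data. A group counted as at background for a gene where no array exceeded its median over 5222 negative control rows, and the difference is then a bound against that median.

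The receptor genes, lists and alternatives were chosen with earlier results of these data known, and the motifs after the receptor values were seen. Beyond the 10 genes, the text names for each pathway list and day the 3 called genes with the largest difference or, with none called, the 1 largest, the 2 genes most alike to each receptor, and the 2 brightest markers of the leukocyte, neutrophil and macrophage lists. Members of a list on the array under 1 symbol were 8 of 8 co-receptors, 14 of 19 adaptors and kinases, 11 of 13 transcription factors, 12 of 12 inhibitors, 16 of 16 targets and 7 of 8 ligands. Untested for low values were 3 inhibitors and 5 targets. Alternatives were other scalings, filters and variance models, array weights, the mean of a gene's rows and leaving out arrays.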

Additional observations from a re-analysis of the deposited data

Results flagged for a closer look

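Groups of 4 arrays were examined for a single value far from the rest, over 39 genes and 156 groups, and 11 stood out by a gap to the rest, relative to the range of the group, above Dixon's 95% critical value, where chance gives about 1 in 20. Among the receptor genes this was Tlr13 on day 1 array 13, at 9.68 where the other arrays read 8.73 to 8.84. Array 13 also held the highest S100a9 value of day 1, 13.89 where the others read 12.34 to 12.56. On day 3 array 31 had S100a8 at 13.64 (others 7.67 to 7.96) and S100a9 at 13.14 (others 7.35 to 7.77), and low values of Bgn at 13.75 (others 14.85 to 14.93) and Hsp90b1 at 15.46 (others 15.91 to 15.95). On day 7 array 73 had low values of Bgn at 15.30, Myd88 at 6.76 and Rela at 8.61, where the others read 15.78 to 15.86, 7.31 to 7.40 and 9.23 to 9.30. The last of the 11 were Tnfaip3 on day 7 array 74, at 5.54 (others 5.37 to 5.39), and Otulin on sham array 4, at 7.65 (others 7.81 to 7.82).

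The difference from sham itself differed between infarction days for 6 receptor genes, by the limma test between days. Day 7 minus day 1 was 1.40 for Tlr3, 0.72 as fitted for Tlr9, whose day 1 arrays were at background, -0.83 for Tlr4, -1.13 for Tlr6, -1.48 for Tlr13 and -1.22 for Cd14. Day 7 minus day 3 was -0.85 for Tlr6, -1.18 for Tlr13 and -0.59 for Cd14, and day 3 minus day 1 was -0.63 for Cd14.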

How the results depend on the processing

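Of 30 receptor differences from sham, 25 kept their direction and their side of the threshold under all 24 alternatives that gave a value, and of 30 differences between days 10 did. No paired analysis was possible because the groups share no replicate numbers. The causes of the changes below were not tested. Called higher on day 3 than on day 1 were 5 receptor genes with array weights, 4 without array 31 and 3 without arrays 13 and 31 (0 to 4 when 1 array was left out), against 0. Called lower in that comparison were 0 after quantile normalisation and 2 with array weights, and 0 to 1 with 1 array left out, against 1. With array weights 1 was called higher on day 7 than on day 3, against 0. Called higher on day 7 than on day 1 were 5 with array weights and 1 under the stricter filter of 8 arrays, which leaves Tlr9 untested, and 1 to 3 with 1 array left out, against 2. Pathway genes called on day 1 were 25 higher and 7 lower after quantile normalisation, against 40 and 4, and 28 were called higher on day 7 with array weights, against 16. With 1 array left out, 34 to 42 pathway genes were higher and 3 to 6 lower on day 1, and 12 to 18 higher on day 7. Called receptor genes against sham ranged from 8 to 8, 8 to 10 and 8 to 10 on days 1, 3 and 7. Differences that changed sign under an alternative were not called in the fit of the deposited values on all 16 arrays. Of these, Tlr7 day 3 minus day 1 was called higher at 0.87 without array 31 (adjusted p 0.043). With array weights it was called at 0.82 (adjusted p 0.0385). Tlr1 day 7 minus day 1 ranged from -0.04 to 0.26 and Tlr7 day 3 minus day 1 from -0.13 to 0.87 with 1 array left out. Tlr8 day 7 minus day 3 ranged from -0.16 to 0.48 with 1 array left out, and was -0.19 with array weights and -0.16 without arrays 13 and 31. Tlr2 day 3 minus day 1 was 0.03 without arrays 13 and 31, Tlr13 day 3 minus day 1 was 0.01 with array weights, and Tlr9 on day 1 was -0.01 after quantile normalisation. Tlr4 on day 7 passed at 0.45 without a variance trend (adjusted p 0.047) and at 0.53 with array weights (adjusted p 0.00869). All genes called on days 1, 3 and 7 numbered 8678, 8051 and 4568, against 11785, 10093 and 8280 with array weights and 11510, 8316 and 6531 without array 31, and 3074 on day 7 after quantile normalisation and 7480 on day 7 without arrays 13 and 31.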
